A study of Mus musculus with 32 samples.

Results

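The genes described here are the pore-forming and auxiliary subunits of voltage-gated sodium, calcium and potassium channels, with the inward rectifier, two-pore-domain and calcium-activated potassium channels that share the potassium channel symbols. They were chosen by symbol alone: names beginning Kcn and a letter, names of the form Scn, a number and a or b, and names beginning Cacna, Cacnb or Cacng. The gene table held 138 such symbols, of which 135 had a named probe on the array, with 187 probes between them, out of 20660 symbols in all. Scn9a, Scn3b and Kcnmb4os2 had no named probe and are not analysed here.

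RNA was measured on 32 one-colour arrays in 4 groups of mouse material, all from 3-week-old mice of the background 129+Ter/SvJcl. Passaged spheres were 4 sphere cultures taken through 5 passages, each hybridised to 2 arrays that were averaged before any comparison (n = 4). Primary spheres were 8 cultures grown for 8 days. Both kinds of sphere were grown from the superior mesenteric ganglion (SMG), which holds sympathetic neurons of the abdomen, of TH-MYCN hemizygotes, whose transgene has human MYCN under the tyrosine hydroxylase promoter, active in catecholaminergic cells. The other groups were whole SMG of TH-MYCN hemizygotes (n = 8) and of wild-type mice (n = 8). The transgenic mice are a model of neuroblastoma, the childhood tumour of the sympathetic lineage. The ganglia hold neurons, glia, vessels and other cells, and the labels do not say whether samples came from separate animals, so p-values measure the spread between these samples. The 3 comparisons followed neighbouring steps: TH-MYCN SMG over wild-type SMG, primary spheres over TH-MYCN SMG, and passaged spheres over primary spheres.

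Voltage-gated sodium channels carry the upstroke of the action potential, voltage-gated calcium channels couple depolarisation to calcium entry and transmitter release, and potassium channels set the resting potential, repolarise the spike and pace repeated firing. Each pore-forming subunit works with auxiliary subunits that change its trafficking and gating, such as sodium beta, calcium alpha2delta and beta subunits, KChIPs for Kv4 channels and beta subunits for the large-conductance calcium-activated (BK) channel. Sympathetic neurons are known for the M-current of Kv7 channels, N-type calcium channels and A-type potassium current, while some potassium channels of the same families mark glia and vessels.

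The promoters of 4 members whose differences were among the widest of the series are shown, since MYC family proteins bind the E-box CACGTG and bHLH factors of sympathetic development bind CANNTG. Kcnip1 and Kcnmb2 were high in TH-MYCN material and not above background in wild-type ganglia, and Kcnip4 and Cacna2d3 fell by most of their signal in spheres. Each window is RefSeq's, in build GRCm38.p6, runs 5′ to 3′ on the gene's strand over 300 bases that end just past the gene's start, and has CANNTG in capitals. Both motifs read alike on the 2 strands and every CACGTG is also a CANNTG. The Kcnip1 window is chr11:33993144-33993443 on the minus strand, the first of 3 starts. The Kcnmb2 window is chr3:31902453-31902752 on the plus strand. The Kcnip4 window is chr5:49285610-49285909 on the minus strand, the first of 2 starts, and the Cacna2d3 window is chr14:29721815-29722114 on the minus strand.
Kcnip1: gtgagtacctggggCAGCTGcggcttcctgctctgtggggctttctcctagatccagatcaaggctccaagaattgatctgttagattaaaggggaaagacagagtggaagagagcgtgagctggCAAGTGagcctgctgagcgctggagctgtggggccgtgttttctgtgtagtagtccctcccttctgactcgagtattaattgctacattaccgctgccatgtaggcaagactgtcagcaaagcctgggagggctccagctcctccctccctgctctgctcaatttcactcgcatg
Kcnmb2: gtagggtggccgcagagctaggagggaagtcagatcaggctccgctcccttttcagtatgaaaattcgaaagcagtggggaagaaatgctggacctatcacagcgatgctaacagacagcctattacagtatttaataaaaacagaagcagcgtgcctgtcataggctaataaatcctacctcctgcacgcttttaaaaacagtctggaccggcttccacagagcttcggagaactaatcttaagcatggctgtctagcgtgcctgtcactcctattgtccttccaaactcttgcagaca
Kcnip4: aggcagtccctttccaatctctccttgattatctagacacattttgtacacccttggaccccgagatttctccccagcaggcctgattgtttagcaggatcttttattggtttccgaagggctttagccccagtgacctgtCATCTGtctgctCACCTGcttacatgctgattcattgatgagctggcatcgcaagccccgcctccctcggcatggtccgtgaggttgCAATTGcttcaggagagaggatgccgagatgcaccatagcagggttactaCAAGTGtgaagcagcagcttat
Cacna2d3: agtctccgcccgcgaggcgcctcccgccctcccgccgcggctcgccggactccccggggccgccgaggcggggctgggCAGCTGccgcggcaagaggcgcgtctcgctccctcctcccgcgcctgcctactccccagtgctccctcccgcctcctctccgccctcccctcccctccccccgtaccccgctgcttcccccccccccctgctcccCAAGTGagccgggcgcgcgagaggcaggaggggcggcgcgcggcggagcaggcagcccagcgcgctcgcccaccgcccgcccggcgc
There were 2 CANNTG matches in the Kcnip1 window, 0 in that of Kcnmb2, 4 in that of Kcnip4 and 2 in that of Cacna2d3, and 0 matches to CACGTG in each. RefSeq windows were at hand for 100 of the 135 members, 136 windows in all. CACGTG stood in 7 of these (5.15%), those of Kcnab1, Kcne4, Kcnh4, Kcnj2, Kcnk5 and Kcnn4, against 7.15% of all 32851 windows. CANNTG stood in 72.1% of the members' windows and 72.3% of all windows. These shares describe letters in a window and say nothing of binding.

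Signals are given as log2 of the deposited processed signal minus the log2 of the array's own 75th percentile, so 0 is that percentile. The percentile itself lay at 323 to 539 intensity units on passaged sphere arrays, 464 to 564 on primary sphere arrays, 840 to 1358 on TH-MYCN arrays and 523 to 989 on wild-type arrays. Spots well above background made up 49.0 to 53.9% for passaged spheres, 57.0 to 59.7% for primary spheres, 59.1 to 64.1% for TH-MYCN ganglia and 60.4 to 65.7% for wild-type ganglia. All 15 sympathetic neuron markers checked (among them Th and Dbh) were well above background in every sample of all 4 groups, with a mean level of 3.41 to 3.96 in passaged spheres, 3.47 to 3.88 in primary spheres, 5.08 to 5.80 in TH-MYCN ganglia and 5.87 to 6.34 in wild-type ganglia. Levels of 8 proliferation markers averaged 3.97 to 4.14 in passaged spheres, 3.67 to 4.00 in primary spheres, 0.76 to 2.91 in TH-MYCN ganglia and -4.67 to -2.47 in wild-type ganglia. The arrays lay on 4 slides, 2 with both ganglion groups in equal numbers and 2 with both sphere groups. For the step into culture each slide held only 1 of the groups compared, so slide and culture cannot be told apart. A fit with slide as a random block cannot separate them either. It gave 60 members lower and 25 higher, against 63 and 26 without it. All 3 comparisons were of bulk RNA, in which fewer cells of a type and less RNA per cell cannot be told apart.

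Of the 135 members, 115 were well above background in at least 4 samples, 20 were not, and 8 of these were above it in no sample. Every sample was above background for 68 members in passaged spheres, 73 in primary spheres, 93 in TH-MYCN ganglia and 94 in wild-type ganglia, and 60 members were so in all 4 groups. A passaged culture counted as above background where at least 1 of its 2 arrays was, a laxer rule than for the other groups. The 9 sodium alpha subunits, 4 calcium beta subunits and 8 ether-à-go-go (EAG) members all passed in at least 4 samples, as did 16 of 17 Kv1 to Kv4 pore subunits, 7 of 10 calcium alpha1 subunits and 11 of 15 inward rectifiers. Cacna1c, the cardiac and neuronal L-type pore, passed in only 3 samples and Cacna1e, the R-type pore, in 2, so neither was compared. A gene was compared where a probe was well above background in at least 4 samples of that comparison, which held for 114 members in 1 comparison or more and for 82 in all 3. Members that pass through only 1 group had to differ. Where a called member had no sample of its dimmer group above background, or only a minority of them, its size is a lower bound (at least N-fold), and the second kind numbered 9 members in TH-MYCN against wild-type ganglia, 10 in primary spheres against TH-MYCN ganglia and 2 after passage. A member was called higher or lower where limma's adjusted p, taken over all genes tested, was under 0.05. Counts of at least 2-fold, for members and all genes alike, took the bound where no array of the dimmer group was above background. Otherwise they took the fitted difference, also where only a minority of the dimmer group was above background.

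**Figure D1:**
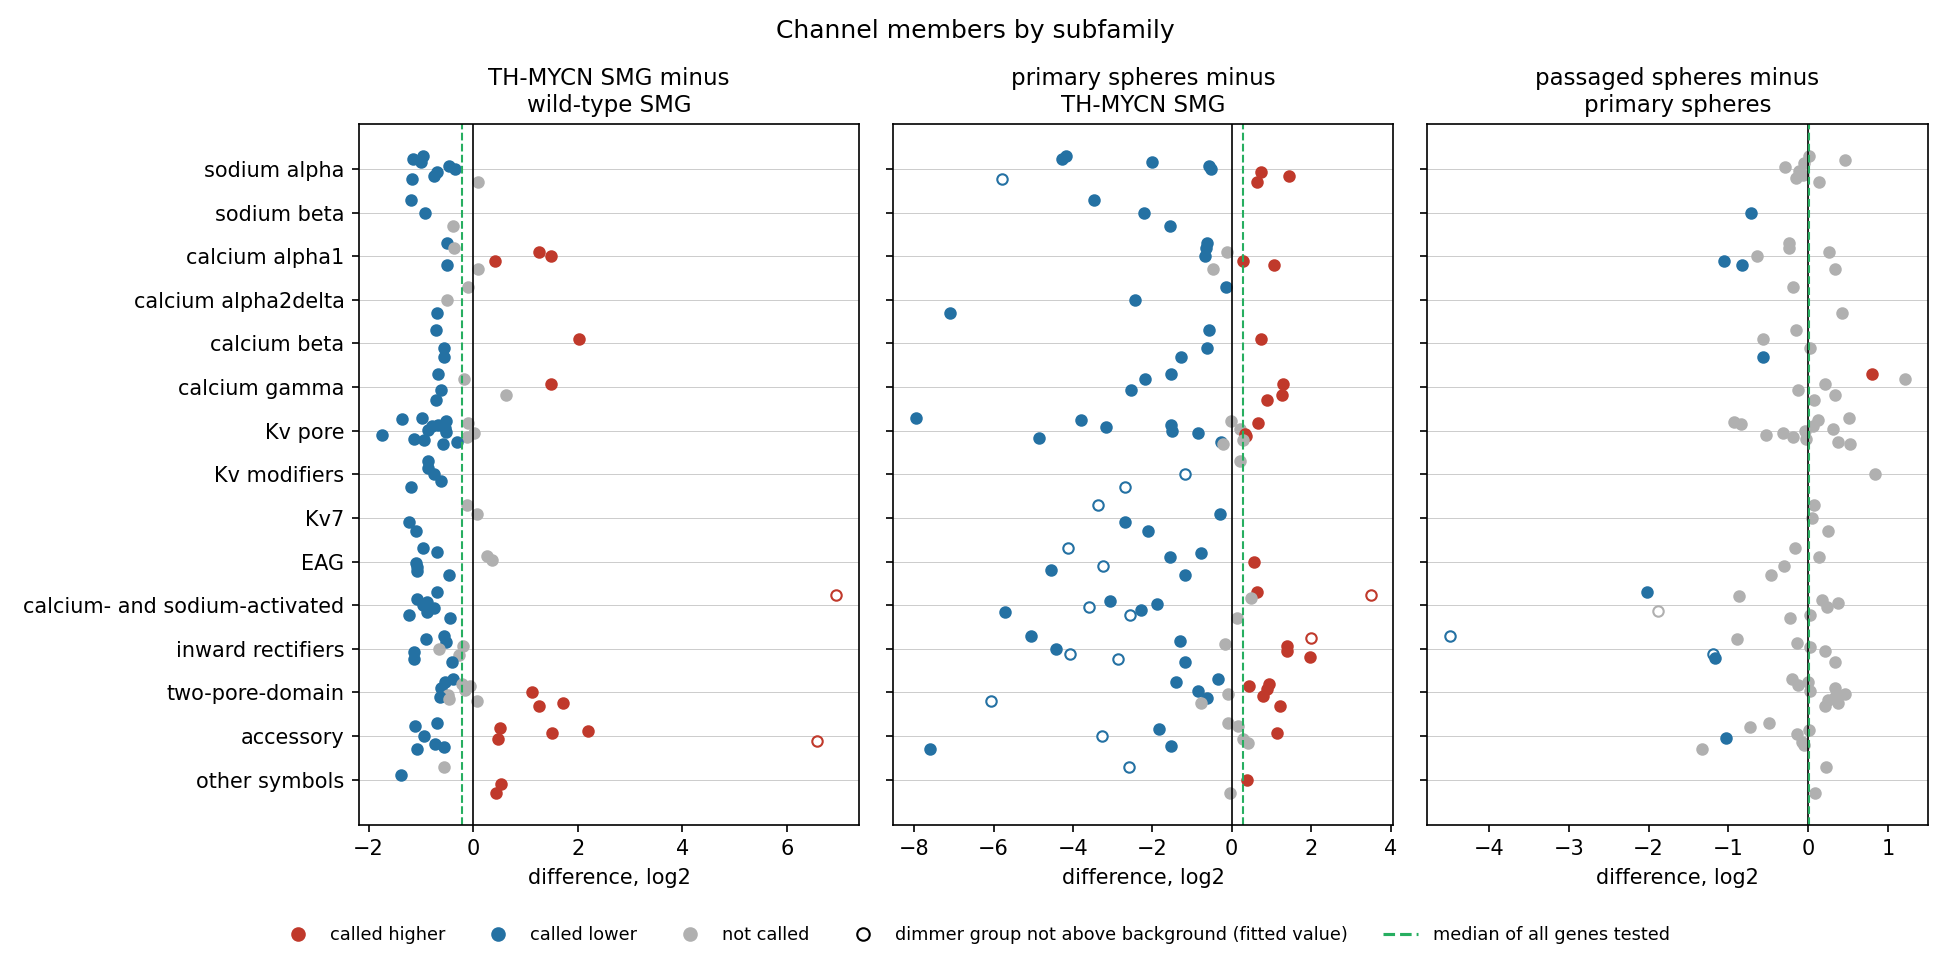
Differences of each tested member, in log2 units, by subfamily, for TH-MYCN minus wild-type SMG, primary spheres minus TH-MYCN SMG and passaged minus primary spheres. Red points were called higher, blue points lower and grey points neither, open points had a dimmer group not above background, and the green dashed line is the median of all genes tested. In the first panel Kcnip1 and Kcnmb2 stand apart at the high end with 6.57 and 6.95, in the second the low end is Kcna1 at -7.95, with 3 of 8 spheres above background, and in the third most points lie near 0.

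TH-MYCN ganglia had lower signal than wild-type ganglia for most channel genes, among them Scn1a, Kcna2, Kcnq3, Kcnmb4 and Kcnip4. Against that course Kcnip1 and Kcnmb2, auxiliary subunits of A-type and BK channels, were at least 50.9-fold and 43.1-fold higher, and Cacna1d and Cacng4 were 2.38-fold and 2.82-fold higher. Of 111 members tested 70 were called lower (63.1%), where 43.8% of all 15845 genes tested were called lower, and 16 were called higher (14.4%), where 21.9% of all genes were. At least 2-fold, 19 members were lower (17.1%), against 5.88% of all genes, and 11 were higher (9.91%), against 7.54%. By fitted difference Kcnc2, Kcnv1, Kcnab2 and Kcnh7 counted among the 19, and Kcne2 and Kcnk7 among the 11. The lower bounds of these members were under 2-fold. The members' median difference was -0.56 on the log2 scale, and that of all genes -0.22. Centring on the median gene left 47 members lower and 20 higher, while the share of higher calls over all genes went to 55.4% of calls, against 33.3% with the 75th percentile. The members tested included 87 above background in every sample of both groups. Within slide 1 alone, with 4 ganglia a group, 46 members were called lower. Of the marker lists checked, 9 of 11 Schwann and satellite glia genes were lower (mean level -0.25 to 0.75 in TH-MYCN ganglia, 0.97 to 1.31 in wild-type ganglia), 7 of 8 macrophage genes were higher (1.04 to 2.00 in TH-MYCN ganglia, 0.20 to 0.91 in wild-type ganglia) and 11 of 15 sympathetic neuron genes were lower, and their part in the channel differences was not tested. None of the glia, macrophage, endothelial or fibroblast markers was below background in every sample of either ganglion group.

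Among sodium channels 8 of 9 alpha subunits and 2 of 3 beta subunits fell in TH-MYCN ganglia and none rose. Of all genes tested 43.8% were lower and 21.9% higher. Scn1a, the Nav1.1 pore of central and peripheral neurons, had lowest, median and highest values of -1.04, -0.03 and 0.60 in TH-MYCN ganglia, against 0.67, 0.94 and 1.19 in wild-type ganglia, and the groups did not overlap. The difference was -0.99 ± 0.21 (SE, adjusted p = 0.000529). Scn7a, an atypical sodium channel (Nax) that senses sodium and is found in Schwann cells and glia, had -1.86, -1.57 and -1.08 in TH-MYCN ganglia, against -0.90, -0.43 and 0.17 in wild-type ganglia. Every TH-MYCN ganglion lay below every wild-type ganglion, with a difference of -1.16 ± 0.16 (SE, adjusted p = 1.37e-05). Scn2a and Scn3a, the Nav1.2 and Nav1.3 pores prominent in developing neurons, fell by 0.46 and 0.35 (adjusted p = 0.00181 and 0.00177). Both lost their calls once samples were centred on the median gene.

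Scn10a and Scn11a, the tetrodotoxin-resistant Nav1.8 and Nav1.9 pores known from sensory neurons, differed by -0.96 ± 0.27 (SE, adjusted p = 0.00475) and -1.14 ± 0.26 (SE, adjusted p = 0.00107). Scn8a, the Nav1.6 pore of nodes and axon initial segments, was not called, with 1.29, 2.06 and 2.36 in TH-MYCN ganglia, against 1.35, 1.82 and 2.27 in wild-type ganglia. Those ranges overlapped almost completely, and the difference was 0.09 ± 0.17 (SE, adjusted p = 0.664). Scn2b, the disulphide-linked beta2 subunit, fell by 0.93 (adjusted p = 0.00144).

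**Figure D2:**
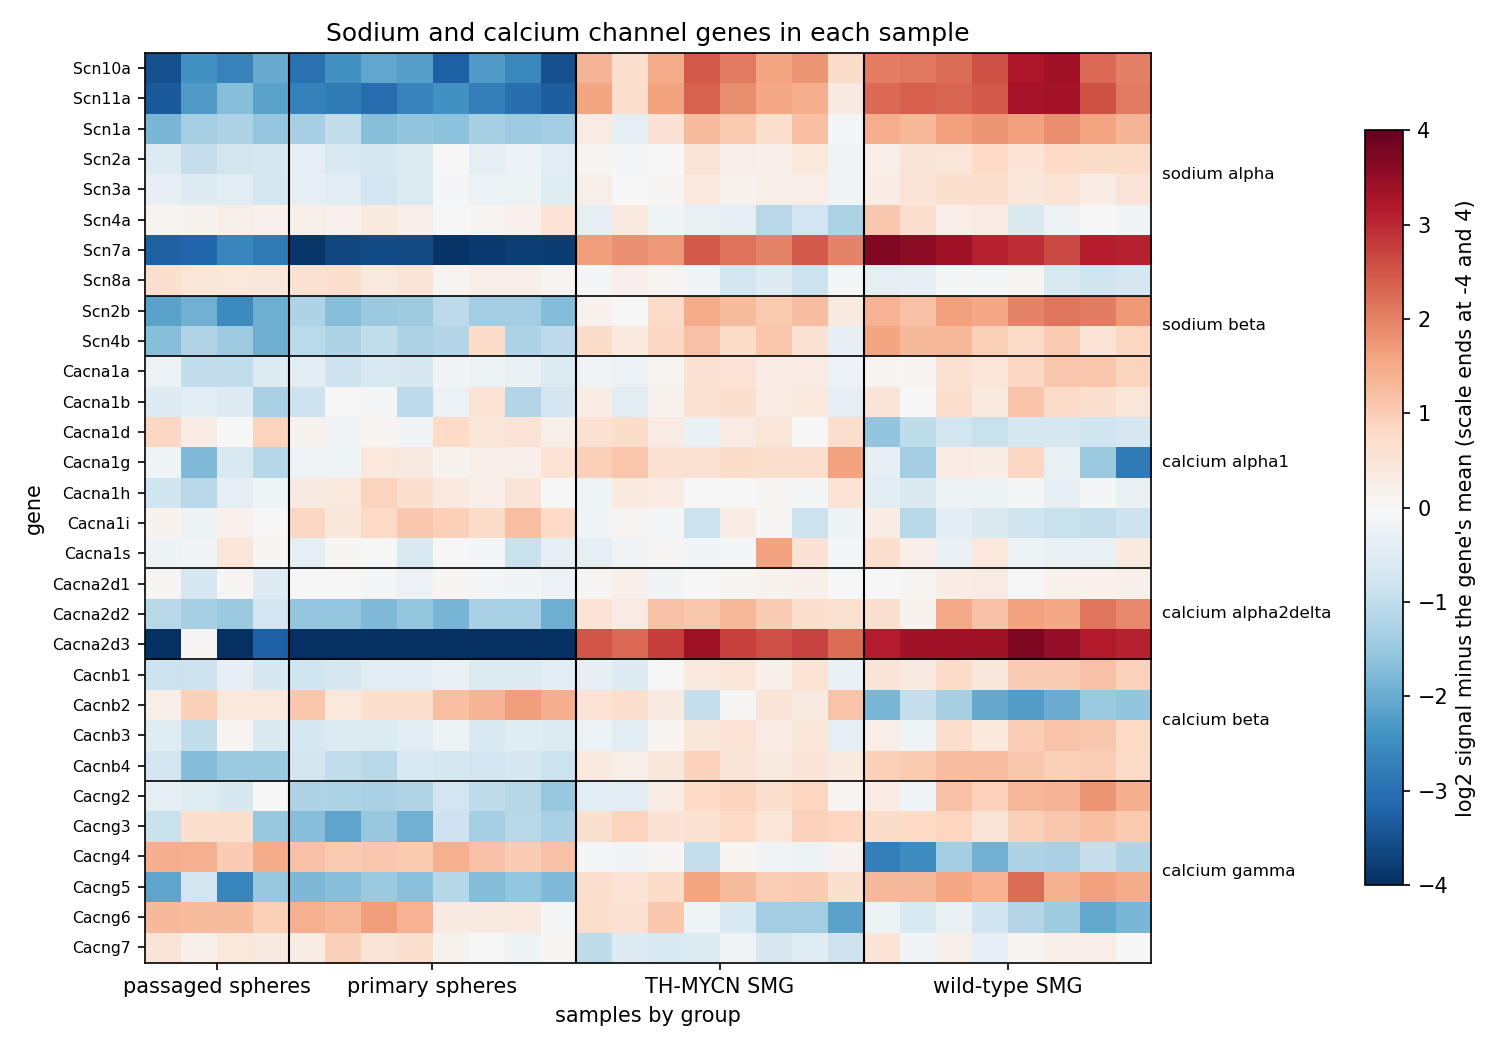
Heat map of sodium and calcium channel members, 1 row a gene and 1 column a sample, grouped as passaged spheres, primary spheres, TH-MYCN SMG and wild-type SMG. Colour is the log2 signal minus the gene's mean over samples, on a scale that ends at -4 and 4. Scn7a, Scn10a and Scn11a are high in both ganglion groups and low in both sphere groups, Cacna2d3 likewise except in passaged culture 2, and Cacng4 is highest in the sphere groups.

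Calcium channel genes went in both directions, where 43.8% of all genes tested were lower and 21.9% higher. Of 7 alpha1 pores 3 rose (Cacna1d, Cacna1g and Cacna1h) and 2 fell (Cacna1a and Cacna1i). Cacna1d, the L-type Cav1.3 pore that opens at low voltage and supports pacemaking, had -1.96, -1.26 and -0.96 in TH-MYCN ganglia, against -3.26, -2.47 and -2.33 in wild-type ganglia. All TH-MYCN ganglia lay above all wild-type ganglia, by 1.25 ± 0.16 (SE, adjusted p = 7.39e-06), 2.38-fold. Cacna1g, a T-type pore, had -4.37, -4.23 and -3.35 in TH-MYCN ganglia, against -7.80, -5.29 and -4.14 in wild-type ganglia, with 8 TH-MYCN but only 4 wild-type ganglia above background. Its rise of 1.49 ± 0.41 (SE, adjusted p = 0.00439) was lost, at -0.06, with a different background correction (normexp), and its ranges overlapped. Cacna1h, another T-type pore, rose by 0.41 (adjusted p = 0.00364), but averaged over its 2 probes the difference was -0.07. Cacna1a, the P/Q-type pore of presynaptic terminals, fell by 0.49 (adjusted p = 0.0202), and Cacna1i, the remaining T-type pore, by 0.51 (adjusted p = 0.0221), both lost after centring on the median gene.

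Cacna1b, the N-type pore that dominates release from sympathetic neurons, had -5.30, -4.57 and -4.25 in TH-MYCN ganglia, against -4.86, -4.32 and -3.76 in wild-type ganglia. Its difference of -0.37 ± 0.17 (SE, adjusted p = 0.0656) missed the threshold and the groups overlapped. Among calcium auxiliary subunits Cacnb2 rose and Cacnb1, Cacnb3 and Cacnb4 fell. Cacnb2, a beta subunit that slows inactivation of several channels, had -5.57, -4.22 and -3.53 in TH-MYCN ganglia, against -6.88, -6.37 and -5.60 in wild-type ganglia. Only 1 of 8 wild-type ganglia was above background, against 7 of 8 TH-MYCN ganglia, and the lowest TH-MYCN ganglion lay just above the highest wild-type one. TH-MYCN ganglia were at least 2.61-fold higher (adjusted p = 4.02e-06), but with normexp the difference was 0.09 and not called. Cacnb4, a beta subunit of neurons, fell by 0.56 (adjusted p = 0.000139), Cacnb1, known from muscle, by 0.72 (adjusted p = 0.00153) and Cacnb3, common in neurons, by 0.55 (adjusted p = 0.0249).

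Cacna2d3, an alpha2delta subunit that brings calcium channels to the terminal and whose relatives bind gabapentin, had 1.28, 1.68 and 2.44 in TH-MYCN ganglia, against 2.14, 2.42 and 2.77 in wild-type ganglia. It fell by 0.69 (adjusted p = 0.000547), and TH-MYCN ganglion 4, at 2.44, lay within the wild-type range. Cacna2d1 and Cacna2d2 were not called, with -0.09 and -0.49. Of the gamma subunits, most of which serve AMPA receptors rather than calcium channels, Cacng4 had -2.28, -1.41 and -1.16 in TH-MYCN ganglia, against -4.04, -2.66 and -2.22 in wild-type ganglia. Cacng4 rose by 1.50 (adjusted p = 8.51e-05), 2.82-fold, with TH-MYCN ganglion 4 as the one sample inside the wild-type range. Cacng2, Cacng5 and Cacng7 fell by 0.67, 0.61 and 0.70 (adjusted p = 0.0428, 0.00306 and 0.000181), and the Cacng2 call was lost without any of 10 of the 16 ganglia in turn.

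Voltage-gated potassium pores fell or were not called. Of 16 Kv1 to Kv4 pore subunits 13 were lower and 0 higher, where 43.8% of all genes tested were lower and 21.9% higher. Of 5 silent modifier subunits, which assemble only with Kv2 pores, all 5 were lower. Kcna2, the Kv1.2 pore of axons, had -2.75, -1.58 and -0.72 in TH-MYCN ganglia, against -0.80, -0.21 and 0.00 in wild-type ganglia, and it differed by -1.36 ± 0.25 (SE, adjusted p = 0.000194). TH-MYCN ganglia reached up to -0.72 and wild-type ganglia down to -0.80, so the ranges just met. Kcnc2, a fast-spiking Kv3 pore, had -7.64, -6.54 and -4.98 in TH-MYCN ganglia, against -5.22, -4.85 and -3.95 in wild-type ganglia. All 8 wild-type ganglia but only 2 TH-MYCN ganglia were above background for Kcnc2, which passed the filter through wild-type ganglia and was at least 1.82-fold lower (adjusted p = 0.00026). Kcnb2, a Kv2 delayed rectifier, fell by 0.53 (adjusted p = 0.00199). Kcnd2 and Kcnd3, the Kv4 pores of A-type current, fell by 0.31 and 0.58 (adjusted p = 0.0188 and 0.00571), and centring on the median gene ended both calls and that of Kcnb2. Kcnc1, a Kv3 pore, was not called at 0.01 ± 0.17 (SE, adjusted p = 0.948). The modifiers Kcng2, Kcns2 and Kcns3 fell by 0.86, 0.74 and 0.62. Kcnv1 and Kcng4, with 1 and 2 of 8 TH-MYCN ganglia above background, were at least 1.59-fold and 1.4-fold lower, and adjusted p over the 5 modifiers ran from 0.00037 to 0.00554.

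Of the Kv7 genes, Kcnq3 (Kv7.3), a pore of the M-current, had -2.95, -1.96 and -1.22 in TH-MYCN ganglia, against -1.21, -0.70 and -0.49 in wild-type ganglia. The Kcnq3 ranges did not overlap, though the nearest ganglia were at -1.22 and -1.21, and Kcnq3 fell by 1.23 (adjusted p = 0.000198), 2.35-fold. Kcnq5 (Kv7.5) had -1.72, -0.89 and -0.10 in TH-MYCN ganglia, against -0.13, 0.22 and 0.59 in wild-type ganglia. It differed by -1.10 ± 0.19 (SE, adjusted p = 0.000118), and only TH-MYCN ganglion 4, at -0.10, reached the wild-type range. Of 8 EAG members, which include the hERG channel, 6 fell and none rose, where 43.8% of all genes tested were lower and 21.9% higher. Kcnh2, the hERG pore known from heart and from proliferating cells, fell by 0.70 (adjusted p = 0.00717), and this ended after centring on the median gene.

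Among calcium- and sodium-activated channels 8 of 9 tested fell, where 43.8% of all genes tested were lower, and the exception was Kcnmb2. Kcnmb2, a BK beta subunit that makes the channel inactivate, had -1.87, 0.03 and 0.53 in TH-MYCN ganglia, against -7.96, -7.49 and -6.20 in wild-type ganglia, and no wild-type ganglion was above background. TH-MYCN ganglia were at least 43.1-fold higher (adjusted p = 1.33e-10). Such a bound sets the bright group's mean over all its samples against a floor for the dim group, which is on each array the dimmest well-above-background probe or the gene's own signal, whichever is higher. Kcnmb4, the BK beta subunit of neurons, had 4.20, 4.84 and 5.49 in TH-MYCN ganglia, against 5.41, 5.86 and 6.16 in wild-type ganglia. It fell by 1.07 (adjusted p = 0.000118), 2.1-fold, and TH-MYCN ganglion 4 alone reached the wild-type range. Kcnma1, the BK pore, fell by 0.68 (adjusted p = 0.00202) on 1 probe and by 0.70 (adjusted p = 0.00114) on another, while the last one rose by 0.26 (adjusted p = 0.0425), so its direction depends on the probe. Kcnn2 and Kcnn3, small-conductance calcium-activated pores that give the afterhyperpolarisation, fell by 0.88 and 0.97 (adjusted p = 9.11e-05 and 0.00019). Kcnt2, the sodium-activated Slick pore, had -5.79, -5.04 and -4.24 in TH-MYCN ganglia, against -4.03, -3.71 and -3.36 in wild-type ganglia, a difference of -1.22 ± 0.21 (SE, adjusted p = 0.000104), and Kcnmb4os1, an antisense transcript at Kcnmb4 named from its symbol, fell by 1.38 (adjusted p = 0.000122).

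Accessory potassium subunits held the other large rise. Kcnip1, which encodes KChIP1, a calcium sensor that binds Kv4 pores, had -1.47, 0.00 and 0.56 in TH-MYCN ganglia, against -7.41, -6.60 and -6.13 in wild-type ganglia. All 8 TH-MYCN ganglia were above background and no wild-type ganglion was, so Kcnip1 was at least 50.9-fold higher (adjusted p = 1.36e-11). TH-MYCN ganglion 4 was the lowest for Kcnip1 at -1.47, still far above every wild-type ganglion. Of the 11 accessory members tested 5 rose (Kcnip1, Kcne1l, Kcne2, Kcne4 and Kcnab3) and 6 fell, Kcnip2, Kcnip3 and Kcnip4 among these. These were 45.5% higher and 54.5% lower, against 21.9% and 43.8% of all genes tested, so the lower share was near that of all genes. Kcne1l rose by 2.20 (adjusted p = 2.81e-06) on 1 probe, while a second had -0.33 and was not called (adjusted p = 0.26). Kcne2 was at least 1.82-fold higher (adjusted p = 0.000203), with only 2 of 8 wild-type ganglia above background, and had -0.11 with normexp. Kcnip4, another KChIP, had 2.19, 2.97 and 3.83 in TH-MYCN ganglia, against 3.64, 4.05 and 4.66 in wild-type ganglia. It differed by -1.08 ± 0.19 (SE, adjusted p = 0.000152), and again only TH-MYCN ganglion 4 reached the wild-type range.

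**Figure D3:**
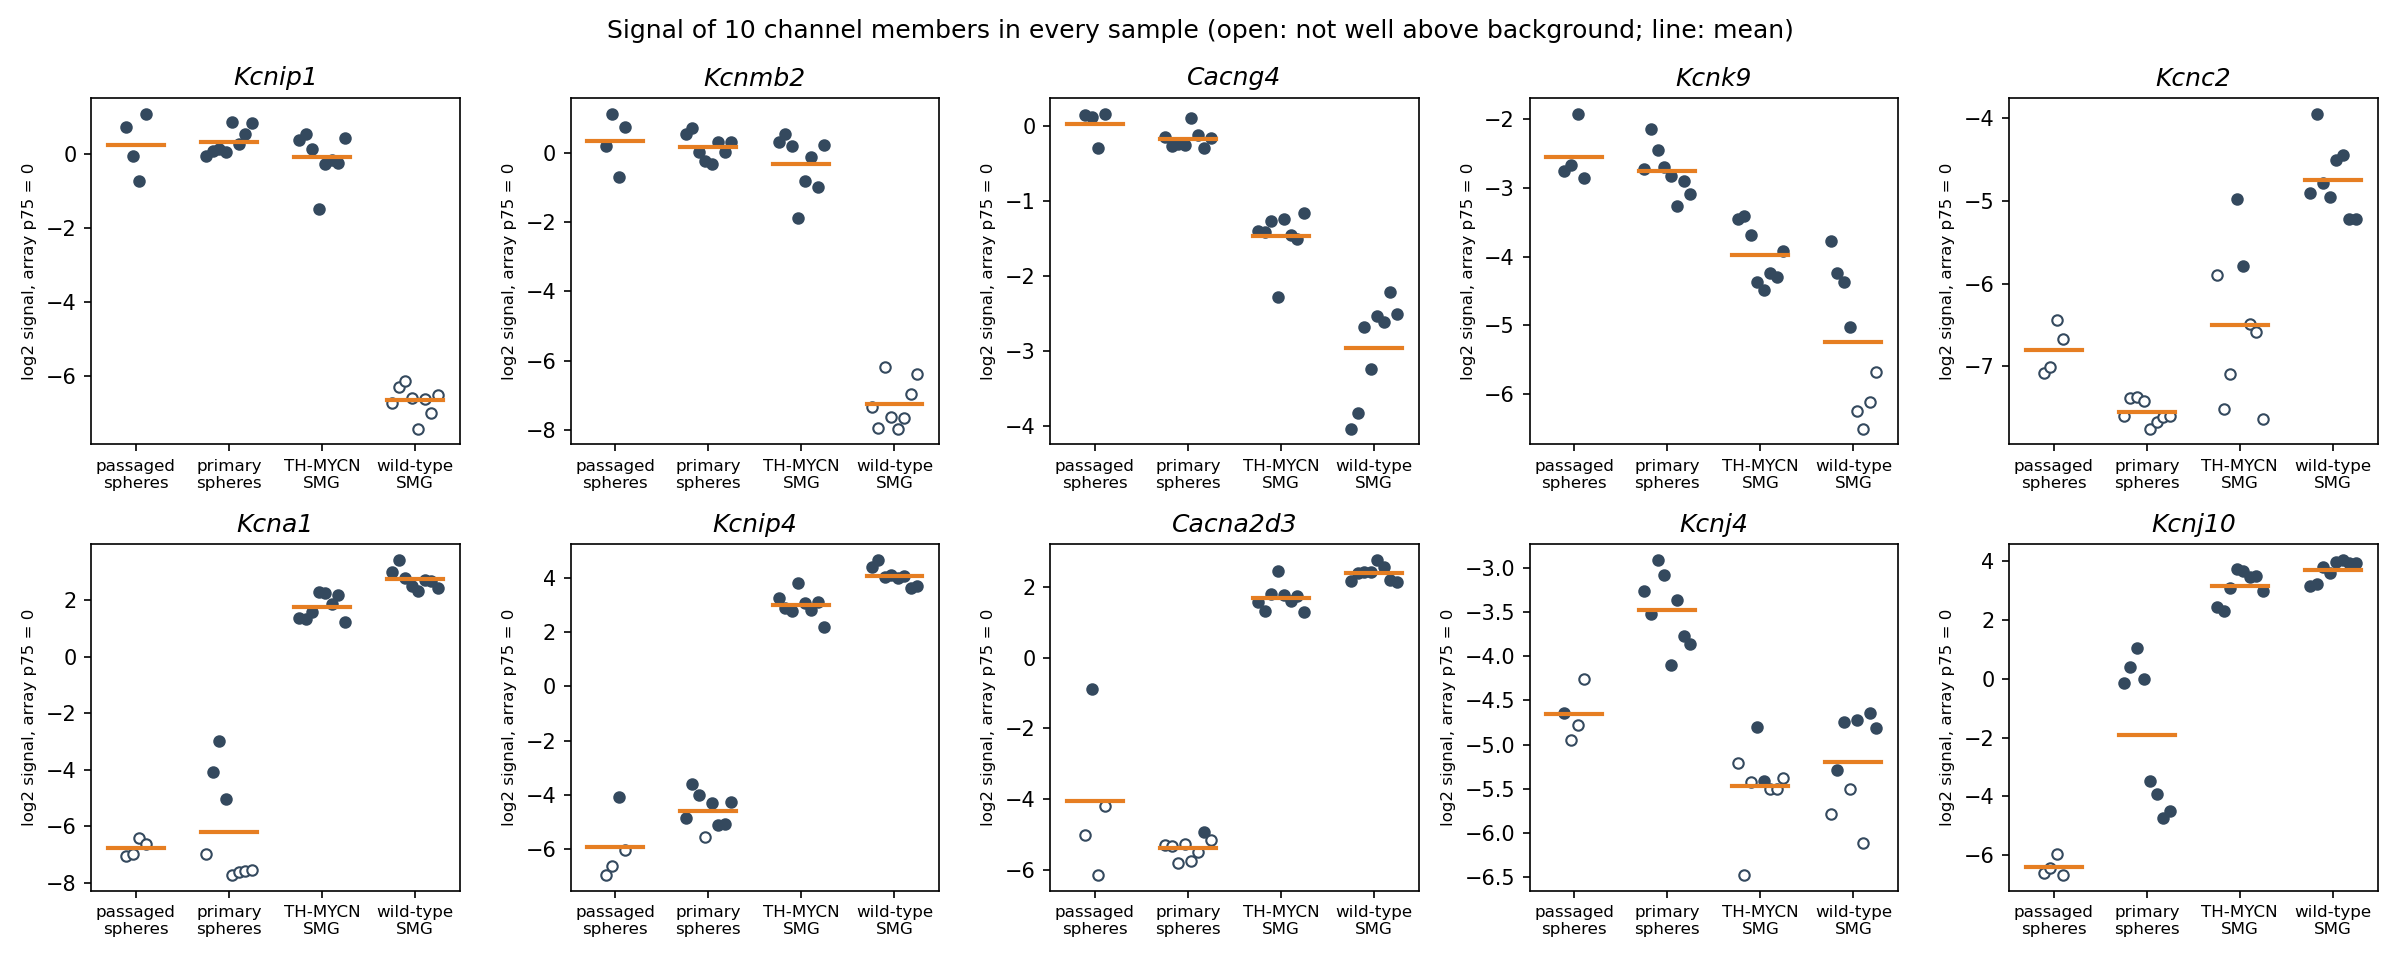
Log2 signal relative to the array's 75th percentile for 10 members in every sample, from left to right in passaged spheres, primary spheres, TH-MYCN SMG and wild-type SMG. Filled points were well above background, open points were not, and the line is the group mean. Kcnip1 and Kcnmb2 are open in all 8 wild-type ganglia, and Kcna1, Kcnip4 and Cacna2d3 drop in both sphere groups.

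Among inward rectifiers and two-pore-domain channels, which set the resting potential, 10 members fell and 3 rose. Over all genes tested 43.8% were lower and 21.9% higher. Of 9 inward rectifiers tested 6 fell (66.7%) and none rose. Kcnj8, the Kir6.1 pore of vascular ATP-sensitive channels, had -5.48, -4.47 and -3.99 in TH-MYCN ganglia, against -3.69, -3.53 and -2.97 in wild-type ganglia, and it fell by 1.13 (adjusted p = 9.07e-05) with no overlap. Smooth muscle and pericyte markers moved beside it, 7 of 8 lower, with a mean level of -2.95 to -2.10 in TH-MYCN ganglia and -2.28 to -1.11 in wild-type ganglia, and their part was not tested. Kcnj10, the Kir4.1 pore of satellite glia and itself on the glia list above, fell by 0.56 (adjusted p = 0.029), a call lost with quantile normalization and without any of 7 of the 16 ganglia in turn. Of 13 two-pore-domain members 3 rose (Kcnk2, Kcnk7 and Kcnk9) and 4 fell (Kcnk1, Kcnk4, Kcnk10 and Kcnk15). These were 23.1% and 30.8%, so this subfamily was called lower no more often than all genes. Kcnk2, the mechanically gated TREK-1, had -3.95, -3.40 and -2.50 in TH-MYCN ganglia, against -4.99, -4.52 and -4.26 in wild-type ganglia, with no overlap and a difference of 1.13 ± 0.19 (SE, adjusted p = 9.62e-05). With normexp its difference was 0.09 and not called. Kcnk9, the acid-sensitive TASK-3, rose by 1.26 (adjusted p = 0.00616), with 4 of 8 wild-type ganglia above background. Kcnk1, the weakly conducting TWIK-1, fell by 0.39 (adjusted p = 0.000456), which did not hold after centring on the median gene. Kcnq1ot1, a long noncoding RNA antisense to Kcnq1, rose by 0.53 (adjusted p = 0.00015). Kcnrg, a soluble regulator of Kv1 channels, rose by 0.43 (adjusted p = 0.000989), while with normexp the difference was 0.24 and not called.

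The step into culture brought the widest differences. Kcnip4 and Kcnt1 were 192-fold and 52.3-fold lower in primary spheres than in TH-MYCN ganglia and Cacna2d3 at least 128-fold lower, while Cacng4 was 2.45-fold and Kcnj4 at least 3.62-fold higher. Of 106 members tested between primary spheres and TH-MYCN ganglia, 63 were lower (59.4%), where 32.9% of all 15650 genes tested were lower, and 26 were higher (24.5%), where 50.2% of all genes were. At least 2-fold, 43 members were lower (40.6%), against 19.8% of all genes, and 10 were higher (9.43%), against 15.7%. Kcnj2 and Kcnj14 counted among the 10 by fitted difference, with lower bounds under 2-fold. The members' median was -0.67, with 0.27 for all genes. This median depended on the processing. With normexp and its offset of 50 it was -0.08, with 40 members higher and 48 lower. Over all genes the share of higher calls was 68.0% of calls with normexp, 48.3% after centring on the median gene and 60.4% as given here. What part of the processing moved it was not tested. Of the 106 members 69 were above background in every sample of both groups. No primary sphere was above background for 13 members and no TH-MYCN ganglion for 2, and these 15 are given as bounds, beside the 10 with a minority of the dimmer group above background.

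Markers of other cell types fell in spheres too. Of 7 fibroblast genes 7 were lower (mean level -6.14 to -2.51 in primary spheres, 3.70 to 4.02 in TH-MYCN ganglia), of 8 macrophage genes 8 were lower (-5.87 to -4.70 in primary spheres, 1.04 to 2.00 in TH-MYCN ganglia), and of 11 glia genes 10 were lower (-4.60 to -1.76 in primary spheres, -0.25 to 0.75 in TH-MYCN ganglia). Of 7 endothelial genes 6 were lower (-4.11 to -3.57 in primary spheres, -1.15 to -0.33 in TH-MYCN ganglia). Of 15 sympathetic neuron genes 9 were lower and 3 higher (3.47 to 3.88 in primary spheres, 5.08 to 5.80 in TH-MYCN ganglia), and 8 of 8 proliferation genes were higher. In primary spheres 2 glia genes, 3 macrophage genes, 3 endothelial genes and 1 fibroblast gene were above background in no sample. Their part in the falls of the channel genes was not tested.

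Of 9 sodium alpha subunits 6 fell in primary spheres, while Scn4a and Scn8a rose. Across all genes tested 32.9% were lower and 50.2% higher. Scn7a had -7.45, -7.32 and -7.11 in primary spheres, against -1.86, -1.57 and -1.08 in TH-MYCN ganglia, with no sphere above background, and was at least 15.4-fold lower (adjusted p = 8.13e-17). Scn10a had -5.91, -4.90 and -4.48 in primary spheres, against -1.74, -0.87 and 0.04 in TH-MYCN ganglia, and Scn11a had -5.03, -4.50 and -4.17 in primary spheres, against -1.39, -0.18 and 0.61 in TH-MYCN ganglia. Both fell far out of the ganglion range, 18.1-fold and 19.3-fold lower (adjusted p = 3.34e-10 and 3.17e-11). Only 4 of 8 spheres were above background for Scn10a, against 8 of 8 for Scn11a, so the Scn10a size rests partly on signal near background. Scn2b had 1.14, 1.46 and 1.81 in primary spheres, against 2.85, 3.78 and 4.34 in TH-MYCN ganglia, a difference of -2.22 ± 0.20 (SE, adjusted p = 2.41e-08). Scn4b, another beta subunit, had 1 of 8 spheres above background and was at least 2.7-fold lower (adjusted p = 5.22e-05), but had 0.05 with normexp. Scn1a fell by 2.02, Scn2a by 0.56 and Scn3a by 0.53 (adjusted p = 1.33e-07, 0.000189 and 9.28e-05), although another Scn2a probe rose by 0.29 (adjusted p = 0.00102).

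Scn8a rose by 0.63 (adjusted p = 0.00124) and Scn4a, the pore of skeletal muscle, by 0.73 (adjusted p = 0.0017). Scn4a, Kcnk4, Kcnk15 and Cacng7 were among the members called lower in TH-MYCN than wild-type ganglia and higher in primary spheres than TH-MYCN ganglia, in 2 comparisons that share the TH-MYCN samples. The Kcnk4 rise of 0.80 (adjusted p = 4.06e-05) was that of its brighter probe, while a dimmer probe, above background in 1 of 8 spheres and 4 of 8 ganglia, had -0.54 (adjusted p = 0.0386), so its direction in culture depends on the probe.

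The alpha2delta subunits had the lowest median difference, -2.44, of the calcium channel subfamilies. Cacna2d3 had -5.82, -5.32 and -4.94 in primary spheres, against 1.28, 1.68 and 2.44 in TH-MYCN ganglia, with 1 of 8 spheres above background, and was at least 128-fold lower (adjusted p = 3.59e-16). Cacna2d2 had -0.12, 0.29 and 0.53 in primary spheres, against 2.15, 2.69 and 3.14 in TH-MYCN ganglia and fell by 2.44 (adjusted p = 1.08e-10), 5.44-fold and without overlap. Cacna2d1 fell by only 0.15 (adjusted p = 0.0432), while its other probe rose by 0.32 (adjusted p = 0.000734). Of the pores, Cacna1i rose by 1.06 (adjusted p = 1.35e-05) and Cacna1h by 0.29 (adjusted p = 0.0396), the last of which was lost without any of 10 of the 16 samples in turn. Cacna1a fell by 0.61 (adjusted p = 0.000682). Cacna1b fell by 0.66 (adjusted p = 0.0174) and Cacna1g by 0.67 (adjusted p = 0.000465), but with normexp they had 0.48 and 0.39 and were called higher.

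Cacng4 had -0.29, -0.20 and 0.10 in primary spheres, against -2.28, -1.41 and -1.16 in TH-MYCN ganglia. It rose by 1.29 (adjusted p = 6.99e-08), 2.45-fold, and no sphere lay within the ganglion range. Cacng6, a gamma subunit of muscle type, and Cacng7 rose as well, by 1.27 and 0.90 (adjusted p = 0.0135 and 4.67e-05), and Cacng2, Cacng3 and Cacng5 fell by 1.53, 2.19 and 2.54 (adjusted p = 2.01e-06, 1.08e-09 and 5.91e-11). Among beta subunits Cacnb2 rose by 0.73 (adjusted p = 0.0106), and Cacnb1, Cacnb3 and Cacnb4 fell by 0.58, 0.62 and 1.28 (adjusted p = 0.00169, 0.000947 and 2.41e-09).

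**Figure D4:**
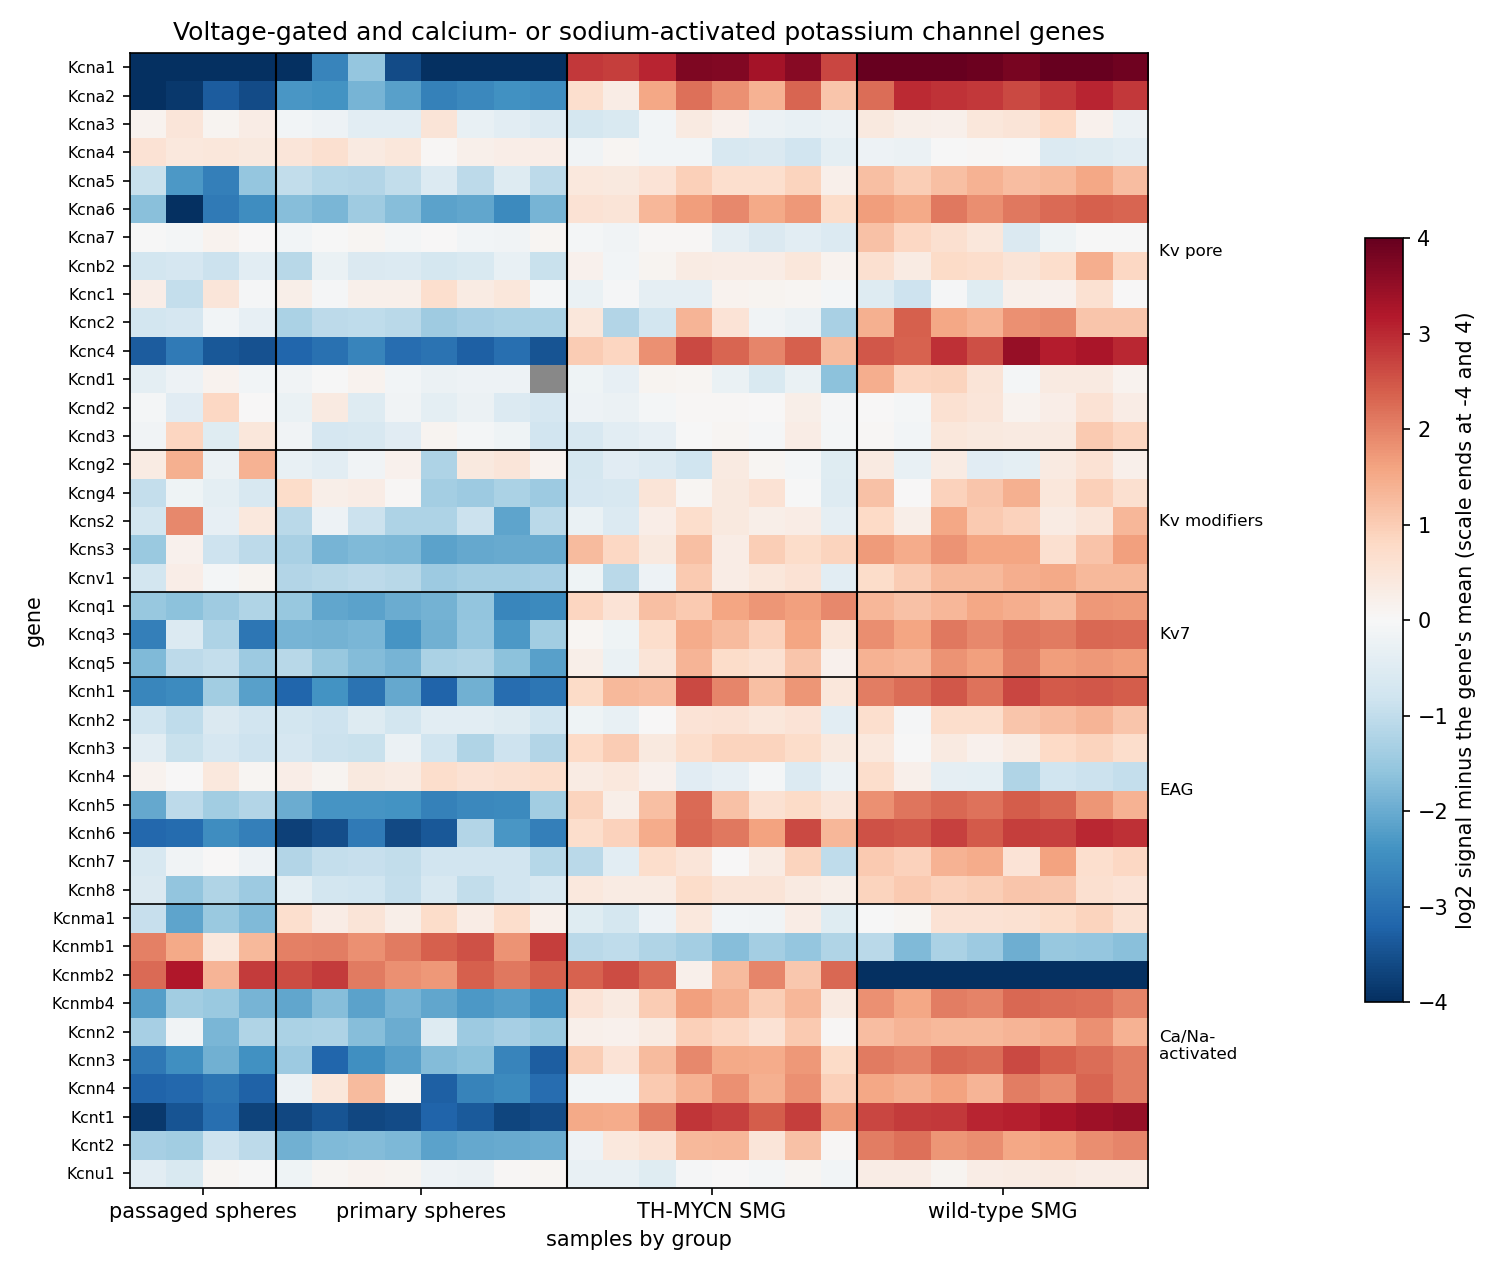
Heat map of the Kv pore, modifier, Kv7, EAG and calcium- or sodium-activated potassium channel members, 1 row a gene and 1 column a sample, in the order passaged spheres, primary spheres, TH-MYCN SMG and wild-type SMG, with colour as the log2 signal minus the gene's mean over samples and a scale that ends at -4 and 4. The grey cell is a spot left out as an outlier (Kcnd1 in 1 primary sphere). Kcnmb2 is low only in the wild-type columns, Kcna1, Kcnc4 and Kcnt1 are low in both sphere groups, and Kcnn4 is higher in the first 4 primary spheres than in the other 4.

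Kv1 to Kv4 pores split in culture, with 8 of 15 lower (53.3%) and 3 higher (20%). Of all genes tested 32.9% were lower and 50.2% higher. Kcna1, the Kv1.1 pore found beside nodes of myelinated axons, had -7.71, -7.26 and -3.00 in primary spheres, against 1.22, 1.73 and 2.29 in TH-MYCN ganglia. Only 3 of 8 spheres were above background, all on 1 slide, so Kcna1 passed the filter through the ganglia and was at least 109-fold lower (adjusted p = 4.81e-09). Kcna2, with 1 of 8 spheres above background, was at least 13.3-fold lower (adjusted p = 5.12e-10). Kcnc4, a Kv3 pore that gives fast inactivating current, had -3.74, -3.31 and -2.94 in primary spheres, against 0.59, 1.61 and 2.36 in TH-MYCN ganglia and differed by -4.85 ± 0.24 (SE, adjusted p = 9.87e-12). Kcna6 (Kv1.6) fell by 3.16 (adjusted p = 8.66e-10). Kcna4, an inactivating Kv1 pore, had 2.62, 2.89 and 3.22 in primary spheres, against 1.83, 2.32 and 2.66 in TH-MYCN ganglia. It rose by 0.67 (adjusted p = 9.48e-05) with slight overlap, and Kcnc1 rose by 0.34 (adjusted p = 0.0103). Kcnd3 was not called at -0.21 ± 0.15 (SE, adjusted p = 0.202), and Kcnd2 fell by 0.27 (adjusted p = 0.048), a call lost without any of 12 of the 16 samples in turn.

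The Kv7 genes Kcnq1, Kcnq3 and Kcnq5 fell, as did 6 of 7 EAG members, where 32.9% of all genes tested were lower and 50.2% higher. Kcnq3 had -5.15, -4.66 and -4.18 in primary spheres, against -2.95, -1.96 and -1.22 in TH-MYCN ganglia, and it differed by -2.68 ± 0.24 (SE, adjusted p = 1.99e-08). Kcnq5 fell by 2.12 (adjusted p = 7.65e-08), both without overlap with the ganglia. Kcnq1, the pore of heart and epithelia, was above background in no sphere and at least 3.52-fold lower (adjusted p = 2.32e-10). Kcnh1 and Kcnh5, the EAG pores, were at least 5.4-fold and 2.44-fold lower (adjusted p = 8.52e-10 and 3.08e-09), and Kcnh6, with 1 of 8 spheres above background, was at least 10.2-fold lower (adjusted p = 4.35e-09). Kcnh2 fell by 0.78 (adjusted p = 0.000193). Kcnh4, of the ELK branch, rose by 0.55 (adjusted p = 0.00196).

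Kcnt1, the sodium-activated Slack pore, had -2.89, -2.79 and -2.44 in primary spheres, against 2.26, 3.03 and 3.64 in TH-MYCN ganglia. It fell by 5.71 (adjusted p = 1.26e-13), 52.3-fold, far outside the ganglion range. Kcnn2 fell by 1.89 (adjusted p = 1.02e-07), Kcnmb4 by 3.06 (adjusted p = 1.44e-10), and Kcnn3 was at least 5.58-fold lower (adjusted p = 3.76e-09). Kcnmb4os1 and Kcnt2 had no sphere above background and were at least 1.6-fold and 1.43-fold lower, while with normexp Kcnmb4os1 turned to 0.35 and was called higher (adjusted p = 0.00786). Kcnma1 rose on all 3 of its probes, by 0.63, 1.07 and 1.57 (adjusted p = 0.0011, 1.61e-05 and 5.45e-10). Kcnmb1, the BK beta subunit of smooth muscle, had -4.58, -4.31 and -3.61 in primary spheres, against -8.09, -7.66 and -7.39 in TH-MYCN ganglia. With no ganglion above background, Kcnmb1 was at least 2.92-fold higher in primary spheres (adjusted p = 1.01e-12), while the smooth muscle and pericyte list had 7 of 7 tested genes lower (mean level -5.15 to -4.22 in primary spheres, -2.95 to -2.10 in TH-MYCN ganglia). Kcnmb2 was not called, with -0.33, 0.17 and 0.72 in primary spheres, against -1.87, 0.03 and 0.53 in TH-MYCN ganglia, nor was Kcnip1, with -0.04, 0.20 and 0.87 in primary spheres, against -1.47, 0.00 and 0.56 in TH-MYCN ganglia. Both ranges overlapped between primary spheres and TH-MYCN ganglia, at differences of 0.49 and 0.42.

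Kcnip4 had -5.56, -4.58 and -3.61 in primary spheres, against 2.19, 2.97 and 3.83 in TH-MYCN ganglia. Its fall of 7.59 (adjusted p = 1.38e-13), 192-fold, left every sphere below every ganglion, with 7 of 8 spheres above background. Kcnip3, also known as the transcriptional repressor DREAM, fell by 1.54 (adjusted p = 6.44e-06). Kcne2 rose by 1.13 (adjusted p = 1.08e-06), Kcne1l fell by 1.83 (adjusted p = 6.35e-07), and Kcne3 was at least 4.01-fold lower (adjusted p = 3.4e-10), but had -0.10 with normexp and was not called.

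Among inward rectifiers 6 of 11 fell (54.5%) and 4 rose (36.4%), where 32.9% of all genes tested were lower and 50.2% higher. Kcnj10 had -4.73, -1.81 and 1.03 in primary spheres, against 2.29, 3.27 and 3.72 in TH-MYCN ganglia. It differed by -5.06 ± 0.82 (SE, adjusted p = 2.36e-05), beside glia markers of which 10 of 11 were lower, Kcnj10 included. Kcnj3, a GIRK pore opened by G-protein-coupled receptors, and Kcnj8 were above background in no sphere and were at least 4.25-fold and 1.84-fold lower (adjusted p = 5.69e-11 and 2.31e-10), though with normexp the Kcnj8 difference was 0.13 and not called. Kcnj4, a classical strong rectifier, had -4.10, -3.44 and -2.91 in primary spheres, against -6.47, -5.41 and -4.81 in TH-MYCN ganglia, with 8 of 8 spheres and 2 of 8 ganglia above background. It was at least 3.62-fold higher (adjusted p = 1.33e-07), and Kcnj2, Kcnj11 and Kcnj14 were the other members that rose, with 1, 0 and 1 of 8 ganglia above background. Kcnj11, the Kir6.2 pore, was at least 1.44-fold higher. Of 12 two-pore-domain members 5 fell and 5 rose (41.7% each), not far from the shares of all genes. Kcnk6 (TWIK-2) had -7.51, -6.65 and -5.79 in primary spheres, against -0.98, -0.60 and -0.28 in TH-MYCN ganglia, with no sphere above background, and was at least 28.7-fold lower (adjusted p = 1.26e-12). Kcnk9 had -3.27, -2.77 and -2.14 in primary spheres, against -4.49, -4.07 and -3.41 in TH-MYCN ganglia and rose by 1.22 (adjusted p = 1.15e-05), with no overlap. Kcnk2 fell by 0.85 (adjusted p = 0.00696) but had 0.18 with normexp.

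Primary spheres were not alike between their 2 slides for a few members. Of 106 members 6 differed by at least 1 log2 unit between the means of the 4 primary spheres on slide 3 and the 4 on slide 4, and 4 by at least 2, with a median size of 0.198. The share of all genes that differed as much was not taken, so these counts cannot be read as particular to channel genes. Kcnj10 averaged 0.32 ± 0.53 on slide 3 and -4.16 ± 0.57 on slide 4 (SD, n = 4 each), a gap of 4.47. Kcnn4, the intermediate-conductance calcium-activated pore of blood and other non-neuronal cells, had -2.72 on slide 3 and -6.00 on slide 4, Kcna1 had -4.77 on slide 3 and -7.61 on slide 4, and Kcnj16, a partner of Kcnj10, had -4.84 on slide 3 and -7.49 on slide 4. On slide 4 no primary sphere was above background for Kcnn4, Kcna1 or Kcnj16. Glia markers, a list that holds Kcnj10 itself, moved beside them. Their mean level was -2.74 to -1.76 on slide 3, where 9 of 11 were above background in every sphere. On slide 4 it was -4.60 to -4.26, where 6 of 11 were. Fibroblast markers had -4.45 to -2.51 on slide 3 and -6.14 to -4.90 on slide 4. The part of either list was not tested. Against TH-MYCN ganglia Kcnj10 differed by -2.83 with the spheres of slide 3 alone and by -7.30 with those of slide 4 alone, and the Cacng6 rise was 0.68 and not called with those of slide 4. With the primary spheres of slide 3 alone 61 members were lower and 22 higher than in TH-MYCN ganglia, and with those of slide 4 alone 59 and 23.

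**Figure D5:**
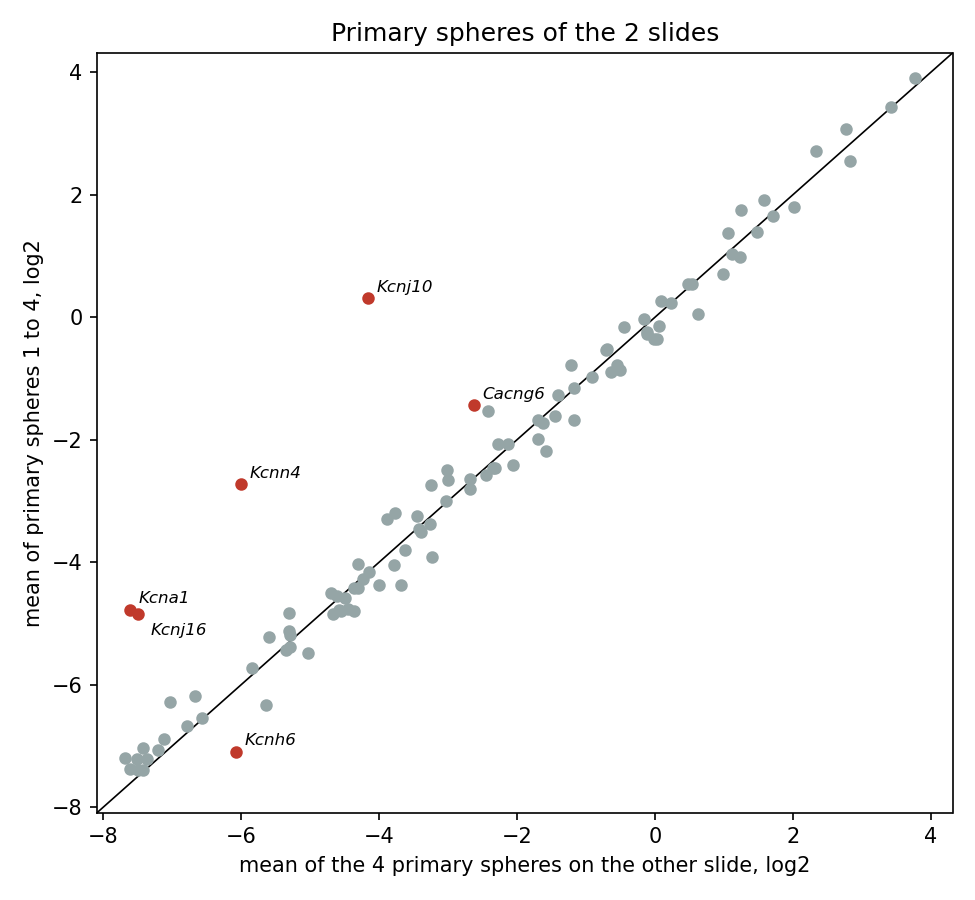
Mean log2 signal of each member in primary spheres 1 to 4 of slide 3 (vertical) against the 4 of slide 4 (horizontal), with the diagonal as equality and members that differ by at least 1 log2 unit labelled. Kcnj10, Kcnn4, Kcna1, Kcnj16 and Cacng6 are higher on slide 3 and Kcnh6 is lower there, and the other 100 members lie near the diagonal.

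Passaged and primary spheres differed in few members, of which the BK pore Kcnma1 and the glial Kcnj10 fell most. Of 85 tested, 9 were lower (10.6%), where 6.44% of all 14242 genes tested were, and 1 was higher (1.18%), where 5.13% of all genes were. At least 2-fold, 5 were lower (5.88%), against 1.83% of all genes, and the higher member, Cacng2, was under 2-fold, where 0.274% of all genes were higher by at least 2-fold. Kcne4 counted among the 5 by its fitted difference, though its lower bound was only 1.07-fold. The median was -0.04 for members and 0.02 for all genes. With 4 cultures on one side, 75 members not called are not thereby shown to be equal. The 10 calls were of 1 sodium beta, 2 calcium alpha1, 1 calcium beta and 1 gamma subunit, Kcnma1, 3 inward rectifiers and Kcne4. Among marker lists 3 of 9 glia genes, Kcnj10 included, and 2 of 3 smooth muscle and pericyte genes were lower. Of 8 proliferation genes 3 were higher, and the part of these lists was not tested.

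Kcnma1 had 0.32, -0.86, -0.26 and -0.55 in the 4 passaged cultures, against 1.42, 1.63 and 1.98 in primary spheres. Every passaged culture lay below every primary sphere, and Kcnma1 fell by 2.02, 2.06 and 1.58 on its 3 probes (adjusted p = 0.000155, 0.000477 and 0.000361). Kcnj10 had -6.60, -6.42, -5.95 and -6.66 in the 4 passaged cultures, against -4.73, -1.81 and 1.03 in primary spheres, with no passaged culture above background. Against the mean of all primary spheres Kcnj10 was at least 7.01-fold lower (adjusted p = 0.0279). The call was lost without passaged culture 1, 2 or 4 or primary sphere 4 (adjusted p = 0.0503 to 0.0805). The primary spheres themselves fell in 2 sets, with means of 0.32 on slide 3 and -4.16 on slide 4. The bound therefore does not hold for each set, and those of slide 4 lay much nearer the passaged cultures. Glia markers averaged -4.98 to -4.73 in passaged and -4.60 to -1.76 in primary spheres, and Fabp7, Cdh19, Erbb3 and Kcnj10 were among the markers above background in no passaged culture.

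Cacna1h had -1.53, -1.87, -1.14 and -0.93 in the 4 passaged cultures, against -0.76, -0.34 and 0.14 in primary spheres. It fell by 1.06 (adjusted p = 0.0049), 2.09-fold and without overlap, although its dimmer probe had -0.06 (adjusted p = 0.882). Cacna1i had -3.10, -3.45, -3.08 and -3.24 in the 4 passaged cultures, against -2.80, -2.44 and -2.03 in primary spheres and differed by -0.83 ± 0.13 (SE, adjusted p = 0.00281), also without overlap. Its other probe had 0.20 and was not called (adjusted p = 0.288). Scn2b had 0.73, 0.93, 0.32 and 0.90 in the 4 passaged cultures, against 1.14, 1.46 and 1.81 in primary spheres and fell by 0.72 (adjusted p = 0.00931), again with no overlap. Cacng2 was the only member called higher, with 0.58, 0.51, 0.36 and 0.96 in the 4 passaged cultures, against -0.53, -0.24 and 0.22 in primary spheres, a rise of 0.80 (adjusted p = 0.00457) and no overlap. Scn2b, Cacnb4 and Kcnj10 were lower at each of the 3 steps, whose neighbouring comparisons share samples.

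Kcnj4 had -4.64, -4.94, -4.78 and -4.25 in the 4 passaged cultures, against -4.10, -3.44 and -2.91 in primary spheres. With 1 of 4 passaged cultures above background Kcnj4 was at least 2.09-fold lower (adjusted p = 0.0061), and Kcnj2, the Kir2.1 pore, was at least 1.07-fold lower (adjusted p = 0.0134). Cacnb4 fell by 0.56 (adjusted p = 0.0367), Kcne4 was at least 1.07-fold lower (adjusted p = 0.0467) with 1 of 4 passaged cultures above background, and each lost its call without any of several single samples, Cacnb4 at up to adjusted p = 0.12 and Kcne4 at up to adjusted p = 0.147. With normexp Kcnj2, Kcnj4, Kcnj10, Kcne4 and Cacnb4 were not called. Kcnip1 had 0.73, -0.06, -0.72 and 1.09 in the 4 passaged cultures. Kcnmb2 had 0.21, 1.13, -0.69 and 0.74 in the 4 passaged cultures. Their differences from primary spheres were -0.08 and 0.17 and were not called. Cacna2d3, not compared here, had -5.01, -0.89, -6.15 and -4.21 in the 4 passaged cultures, of which only the second was above background.

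Genes that work with these channels were followed as a list of 29, among them pacemaker channels, fibroblast growth factor homologous factors and anchoring proteins of the axon initial segment. In TH-MYCN against wild-type ganglia 18 of 27 tested were lower and 5 higher, with a median of -0.71, where 43.8% of all genes tested were lower and 21.9% higher, with a median of -0.22. In primary spheres against TH-MYCN ganglia 18 of 27 were lower and 5 higher, with a median of -0.87, where 32.9% of all genes were lower and 50.2% higher, with a median of 0.27. After passage 3 of 26 were lower and 1 higher, where 6.44% and 5.13% of all genes were. Hcn2, a pacemaker channel pore, averaged 2.90 ± 0.29 in TH-MYCN ganglia and 3.89 ± 0.77 in wild-type ganglia (SD, n = 8 each), a difference of -0.99 (adjusted p = 0.00403), and rose by 0.69 in primary spheres (adjusted p = 2.74e-05). Fgf13, which binds sodium channels and microtubules, rose by 1.29 in TH-MYCN ganglia and by 1.51 in primary spheres (adjusted p = 1.62e-05 and 6.29e-07). Rem2, a GTPase that inhibits calcium channels, rose by 2.19 in TH-MYCN ganglia (adjusted p = 7.56e-07). Rest, the repressor of many neuronal channel genes, fell by 0.80 in TH-MYCN ganglia and by 2.85 in primary spheres (adjusted p = 0.0101 and 4.13e-06). Only 2 of 8 primary spheres were above background for Rest, so the size of the second fall rests on signal near background. Dpp6, an auxiliary subunit of Kv4 channels, fell by 0.84 and by 1.84 at the same steps (adjusted p = 7.2e-05 and 6.56e-10).

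Of the 82 members tested at all 3 steps, 29 were lower in TH-MYCN ganglia and again in primary spheres, and not called after passage. A further 16 had the same first steps and were not tested after passage. Over all genes tested 43.8% were lower at the first step and 32.9% at the second. The share of all genes lower at both was not taken, so these counts have nothing to be set against. Cacnb2, Cacng4, Kcne2, Kcnk9 and Kcnq1ot1 were higher at both first steps and not called after passage, and Cacna1h was higher at both and then lower. Cacna1g, Kcne1l and Kcnk2 were higher in TH-MYCN ganglia and lower in primary spheres. With normexp neither Cacna1g nor Kcnk2 kept these calls, and a second Kcne1l probe was not called in TH-MYCN ganglia. The rises of Cacnb2 and Kcne2 in TH-MYCN ganglia were also lost with normexp, and that of Cacna1h when its probes were averaged. Since neighbouring comparisons share samples, these patterns are descriptions. Only Cacna1s and Kcnk3 were tested 3 times and called in none.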

How the data were processed

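RNA of 32 samples was hybridised to one-colour arrays, labelled with Cy3 from 40 or 200 ng of RNA per the labels' protocols, which do not say which sample had which amount. Per the file headers the deposited intensity values are Agilent Feature Extraction processed signals, background-subtracted by that software. They were taken to log2 after division by each array's 75th percentile. The deposited value table, whose scale and centring are not stated, held log2 values equal to these less a constant per probe for 99.9% of values within 0.05. Control spots and outlier spots were left out. The arrays hold 55681 probes, of which 27235 took a symbol through a RefSeq accession, and 28446 have no name here.

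Passaged arrays of a culture were averaged. Comparisons were fitted in limma 3.58.1 (R 4.3.3), 2 groups at a time, with Benjamini-Hochberg adjustment over all genes tested. The brightest kept probe stood for a gene. The steps were tested on simulated data. Alternatives were normexp background correction (offset 50), quantile normalization, centring on the median gene, other filters on dim probes, the mean of a gene's probes, 1 fit of all groups, the value table, slide and replicate blocks, and single samples left out. Genes were named by a rule: a panel of 39 channel genes of sympathetic neurons, glia and vessels, the 5 largest rises and falls among called members above background in all samples of the brighter group, members with opposite probes, and called members of subfamilies with 5 calls or fewer. Other members, and the promoters shown, were named after their values were seen. Some genes are not reported here. Members, lists and tests were chosen with earlier results of these data known.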

Additional observations from a re-analysis of the deposited data

Results flagged for a closer look

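Among 201 groups of member values 18 held 1 sample far from the others by Dixon's criterion, where chance gives about 1 in 20, and all are given as log2 signals relative to the array's 75th percentile. TH-MYCN ganglion 4 was the sample in 5 of them. It had 2.44 for Cacna2d3, against 1.28 to 1.82 in the other TH-MYCN ganglia, 0.058 for Cacnb4 (the others -0.65 to -0.35), -2.28 for Cacng4 (the others -1.51 to -1.16), -1.47 for Kcnip1 (the others -0.27 to 0.56) and 1.15 for Kcnq1ot1 (the others 1.46 to 1.70). For these 5 members that ganglion was the TH-MYCN sample nearest the wild-type mean. TH-MYCN ganglion 8 had -1.32 for Kcnrg (the others -2.14 to -1.77).

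Among wild-type ganglia, ganglion 1 had -3.26 for Cacna1d (the others -2.71 to -2.33), -0.87 for Kcnk4 (the others -1.76 to -1.44) and -2.53 on the second probe of Kcnrg (the others -2.22 to -2.03). Wild-type ganglion 5 had 0.39 for Cacng5 (the others -0.55 to -0.19), ganglion 7 had -2.06 for Kcnb2 (the others -3.20 to -2.71) and 2.51 for Kcnn2 (the others 1.93 to 2.13), and ganglion 8 had -4.99 for Kcne1l (the others -3.98 to -3.50).

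Among spheres, passaged culture 3 had 0.51 for Kcnip3, against -3.06 to -2.57 in the other cultures, the widest gap of the 18. It also had -0.30 for Cacng4 (the others 0.12 to 0.16). Passaged culture 4 had -1.94 for Cacng6 (the others -1.62 to -1.60). Primary sphere 5 had 0.10 for Cacng4 (the others -0.29 to -0.13) and -2.97 for Cacng5 (the others -3.63 to -3.33).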

How the results depend on the processing

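Counts of called members held within 1.5 times under most settings. With normexp 7 members were higher in TH-MYCN than wild-type ganglia and 40 were higher in primary spheres than TH-MYCN ganglia, and its offset adds the same amount to dim and bright arrays. Within slide 1, 46 members were lower in TH-MYCN ganglia. After passage, where 1 member was higher and 9 lower, the higher count was 3 with normexp, 2 with quantile normalization, 24 with no filter on dim probes, 4 with a slide block and 2 within each of slides 3 and 4, and the lower count was 4 with normexp, 15 with no filter, 15 with all 4 groups in one fit and 5 within slide 4. Leaving out 1 sample gave 15 to 16 higher and 64 to 72 lower members in TH-MYCN ganglia, 25 to 27 and 61 to 63 in primary spheres, and 1 to 3 and 6 to 13 after passage. Whichever sample was left out, 78 of 86, 86 of 89 and 7 of 10 calls were kept at these steps. Replicate numbers are shared between groups, but same-numbered samples did not deviate together throughout (correlation over 0.1 in 7 of 8, 1 of 8 and 2 of 4 pairs), so they were not taken as paired. A replicate block gave 18 higher and 75 lower members, then 26 and 61, then 3 and 6. In TH-MYCN ganglia the sign turned for Cacna1g (-0.065) and Kcne2 (-0.11) with normexp and for Cacna1h (-0.071) with the mean of its probes. In primary spheres it turned with normexp for Cacna1b (0.48), Cacna1g (0.39), Kcnb2 (0.19), Kcnj8 (0.13), Kcnk2 (0.18), Kcnmb4os1 (0.35), Kcns2 (0.64), Kcns3 (0.25) and Scn4b (0.054), and with the mean of probes for Cacna2d1 (0.088). The cause of these changes was not tested. Of the named results 26 of 52, 27 of 52 and 19 of 31 were unchanged in every setting run. Signal near background limits the dim members, and 4 passaged cultures limit the last step.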

Other observations

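Over the members' probes that were used in a comparison and above background in every sample of a group, the median SD was 0.321 in passaged spheres (71 probes), 0.246 in primary spheres (77), 0.383 in TH-MYCN ganglia (99) and 0.328 in wild-type ganglia (99). The most variable was Kcnip3 in passaged spheres (SD 1.70), Kcnj10 in primary spheres (SD 2.44) and Cacng6 in both TH-MYCN ganglia (SD 1.17) and wild-type ganglia (SD 0.698).

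Some members gave no usable signal. Kcnj5 and Kcnj6, GIRK pores that partner Kcnj3, and Cacna1f, the retinal L-type pore, were above background in 0 samples. Signal below background does not show that the genes were silent.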
